A study of Homo sapiens with 18 samples.

Results

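The 36 genes described here carry out or control the synthesis of cholesterol and of fatty acids, and they were picked out by gene symbol, with earlier results of these data known. They were split into a sterol branch of 20 genes, 5 regulators and a fatty acid branch of 11 genes. All 36 had a row in the expression tables of both prostate cancer cell lines, which listed 15094 genes with a symbol in PC3 and 20967 in 22RV1.

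Cells make cholesterol from acetyl-CoA through mevalonate, isoprenoid and sterol intermediates, and they make fatty acids from the same precursor through malonyl-CoA. Both routes are under the control of the sterol regulatory element-binding proteins (SREBPs), membrane-bound transcription factors encoded by SREBF1 and SREBF2. When membrane sterol is plentiful, the INSIG proteins hold the SREBP escort protein SCAP in the endoplasmic reticulum. When sterol runs low, SCAP carries the SREBPs to the Golgi, where proteases free the part that enters the nucleus and switches on these genes, INSIG1 among them.

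RNA-seq was performed on 18 libraries of human cell lines kept in RPMI medium with fetal bovine serum, all harvested at 24 h. PC3 is a castrate-resistant prostate cancer line from a metastasis, and 3 libraries received DMSO vehicle (control) and 3 received 10 µM canagliflozin (CANA), an inhibitor of the glucose transporter SGLT2 that is used in diabetes. 22RV1 is another castrate-resistant line, and it had 3 libraries in each of 4 groups, which were vehicle without radiation (control), 10 µM CANA, a single 5 Gy dose of radiation (RT) and both together (CANA + RT). PC3 values were reads scaled by the authors for library size (normalized reads), behind which stood 15807924 to 28327063 recovered reads a library. 22RV1 values were rlog values, a log2 scale of the authors that draws the differences of thinly counted genes towards 0, and the number of reads in each 22RV1 library is not known from them.

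The lines and the radiation were checked against their labels. AXL, a receptor tyrosine kinase, averaged 12102 normalized reads in PC3 controls and 0.294 in 22RV1 (the authors' mean over all 12 libraries). In 22RV1 the p53 targets CDKN1A and FDXR rose after RT by log2 1.06 and 1.35. Of the markers of other cell types, DCN, PDGFRB and PTPRC were at 2.03 to 10.3 normalized reads in the PC3 group means and at 1.90 to 7.90 in 22RV1. The 6 fibroblast and leukocyte markers summed to 501 in 22RV1 (authors' mean), mostly COL1A1 at 314 and LUM at 158. After RT, LUM rose from a mean rlog of 6.90 to 7.54 (adjusted p = 6.24e-11, limma) and COL1A1 from 8.21 to 8.37 (adjusted p = 0.00263), and their part in the RT results was not tested. All 6 fibroblast and leukocyte markers were listed in PC3, where they summed to between 1325 and 1475 normalized reads in the controls and between 672 and 1120 with CANA, most of it COL1A1 (means of 1332 and 840, a log2 difference of -0.70 with an adjusted p of 0.247 over all libraries and -0.46 with 0.000127 without B), and their part in the PC3 results was not tested.

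Among the 6 PC3 libraries, replicate B of the CANA group lay far from the rest, at 50.5 on a first principal component that held 66.1% of the variance, with the others between -17.3 and -1.58. In it, long transcripts were low and short ones high. PC3 differences are therefore given over all 6 libraries and without that library. The fits without it compare CANA A and C with control A, B and C. The library left out was chosen from these same data. In 22RV1 the first component held 83.4% of the variance and separated the 6 irradiated from the 6 unirradiated libraries.

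The promoters of 4 members are shown because the results turn on these genes. MSMO1, a demethylating sterol oxidase, had the largest log2 difference of any sterol gene in each comparison with CANA over all libraries. MVK, the kinase that phosphorylates mevalonate, had one of the 2 largest falls after RT. INSIG1 is the feedback regulator, and SCD, which puts the double bond into stearate, had the largest rise of any member after RT. The sequences are RefSeq's (GRCh38.p14), plus strand in all 4, and hold the bases before RefSeq's start site that lie in no annotated exon. Capitals mark TCACNCCA, a core of the SREBP-binding sterol element, or CCAAT, the box bound by NF-Y, which read ATTGG on the other strand. The genes lie at chr4:165327667-165343164, chr12:109573255-109598125, chr7:155297776-155310235 and chr10:100347233-100364826 (GENCODE 44). The sequences come from chr4:165327419-165327666 (MSMO1), chr12:109573581-109573792 (MVK), chr7:155297628-155297775 (INSIG1) and chr10:100346983-100347232 (SCD). The MVK sequence lies inside the GENCODE span of MVK, downstream of its first base, and is upstream only of RefSeq's start.
MSMO1: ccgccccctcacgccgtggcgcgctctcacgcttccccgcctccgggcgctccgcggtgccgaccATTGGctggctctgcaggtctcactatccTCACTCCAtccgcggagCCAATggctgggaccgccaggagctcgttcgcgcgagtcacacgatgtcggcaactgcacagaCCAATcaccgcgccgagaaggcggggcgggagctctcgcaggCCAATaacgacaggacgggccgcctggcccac
MVK: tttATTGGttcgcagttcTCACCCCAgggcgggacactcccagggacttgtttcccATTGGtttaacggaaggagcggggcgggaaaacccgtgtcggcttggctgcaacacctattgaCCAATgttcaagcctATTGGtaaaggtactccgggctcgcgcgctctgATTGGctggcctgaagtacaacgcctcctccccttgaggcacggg
INSIG1: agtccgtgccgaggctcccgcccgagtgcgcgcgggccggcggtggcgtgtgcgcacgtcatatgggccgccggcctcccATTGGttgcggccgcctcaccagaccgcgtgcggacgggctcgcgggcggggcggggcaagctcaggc
SCD: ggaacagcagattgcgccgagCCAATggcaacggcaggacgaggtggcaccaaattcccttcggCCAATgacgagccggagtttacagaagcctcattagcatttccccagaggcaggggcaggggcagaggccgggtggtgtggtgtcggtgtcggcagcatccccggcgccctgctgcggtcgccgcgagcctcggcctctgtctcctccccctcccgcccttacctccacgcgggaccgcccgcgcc

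The same motifs were searched on both strands in windows from 250 bases before to 50 bases after the start of 32 members, with no entry for ACAT2, FDFT1, SQLE and FASN. CCAAT was found in 13 of 17 sterol promoters and in 4 of 10 fatty acid promoters, against 35.7% of all 27305 promoters (the first entry of each symbol). More than 1 CCAAT match lay in 10 of the 17 sterol promoters and in 2 of the 10 fatty acid promoters, against 11.3% of all. MVK and NSDHL, a sterol C-4 demethylase subunit, had 5 matches each, and in NSDHL 2 of them overlapped. TCACNCCA was found in MSMO1, MVK and SREBF2 (3 of 32, against 3.93% of all), starting 156, 195 and 133 bases before the start. The E-box CACGTG was found in LSS, SC5D, SCAP and INSIG1 (4 of 32, against 7.43% of all), and no TCACNCCA or CACGTG match overlapped another motif. These are matches of letters and not measured binding.

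Levels were compared between genes as reads per kilobase of transcript. In PC3 controls the farnesyl diphosphate synthase FDPS was highest at 2693 per kilobase, followed by EBP, which shifts the double bond of the sterol ring, at 2116, and the fatty acid desaturase FADS2 at 1700. In 22RV1 (authors' mean over 12 libraries) FDFT1, which makes squalene, was highest at 4063, followed by FDPS at 3368 and ACLY, which makes cytosolic acetyl-CoA, at 2263. FADS2 stood at 230 in 22RV1 and the 2 lines were normalized separately, so no test was made between them. LSS, the lanosterol synthase, was the lowest of the sterol genes in both, at 39.1 and 35.0 per kilobase.

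ACACA, which encodes the cytosolic acetyl-CoA carboxylase, could not be read in either line. It had 9, 10 and 10 recovered reads in PC3 control A, B and C and 10, 3 and 4 in CANA A, B and C, and the authors' mean in 22RV1 was 21.2 normalized reads. Its neighbours on chromosome 17, looked up after these values were seen, were low as well, among them genes that every cell uses: PSMB3, a subunit of the proteasome, had 1.31 normalized reads in 22RV1 and MRPL45, a mitochondrial ribosomal protein, had 0.205, while RPL23, 26 genes away, had 12329. The cause was not tested, and ACACA by itself is not interpreted here. It stayed in the 22RV1 counts and fatty acid medians. With a minimum mean rlog of 6 in 22RV1 it dropped out. The median of the 10 fatty acid genes then tested was 0.0015 after RT, beside -0.034 with ACACA. For CANA + RT against RT it was -0.0080, beside -0.0011 with ACACA. The mean of ACACA in PC3, 7.76, was under the minimum of 10 set for testing, so that 35 members were tested in PC3 and 36 in 22RV1. HSD17B7, a sterol ketone reductase, and FDPS have pseudogene copies that could take or lend reads, so their values are less certain.

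The first comparison asked what CANA did in PC3 cells. CANA and control values did not overlap for 14 of the 35 tested members with CANA higher and 4 with CANA lower. Over all genes the share was 17.7% in each direction. The counts were 12 and 1 for sterol genes, 2 and 1 for regulators and 0 and 2 for fatty acid genes. Among them INSIG1, the feedback inhibitor, and the sterol genes MSMO1, IDI1 and STARD4 were higher, and SREBF1 was lower. With all 6 libraries none of the 35 members passed limma's test at an adjusted p below 0.05, against 0% of 13450 genes tested. At an unadjusted p below 0.05, 9 members were higher and 2 lower, against 10.7% and 7.77% of all genes, and edgeR on the recovered reads gave the same counts, with no member past adjustment. DESeq2 called 5 members higher (INSIG1, MSMO1, INSIG2, IDI1 and STARD4) and 0 lower. Over all genes it called 263 higher and 87 lower, of 10842 that were given an adjusted p. Without replicate B, limma called 12 of 35 members, against 20% of the 13445 genes tested, 9 of them higher (10.4% of all genes) and 3 lower (9.54% of all genes). Leaving out any other single PC3 library gave no call for any gene.

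INSIG1 gave 499, 518 and 492 normalized reads in control A, B and C and 684, 795 and 682 in CANA A, B and C. Each CANA library stood above each control, and replicate B was the highest. The log2 difference was 0.51 ± 0.09 (SE, adjusted p = 0.222, limma, n = 3 and 3) over all libraries and 0.44 ± 0.07 (adjusted p = 0.000253) without B. INSIG1 was also called once a curve of transcript length had been removed from each library (adjusted p = 0.0465, limma). With a replicate block added to that fit, no gene was called, INSIG1 included. INSIG2, its paralog, gave 0.35 over all libraries (adjusted p = 0.247) and rose by 0.30 without B (adjusted p = 0.00263).

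SREBF1, which encodes the SREBP best known for fatty acid genes, gave 633, 609 and 569 in the controls and 517, 482 and 489 in CANA A, B and C, so all 3 CANA libraries lay below the controls. It fell by 0.26 on the log2 scale without B (adjusted p = 0.0173, limma), and the difference over all libraries was -0.28 (adjusted p = 0.247). SREBF2, whose product mainly serves sterol genes, gave 1440, 1484 and 1445 in the controls and 1655, 1247 and 1661 in CANA. Its replicates A and C were above the controls and B below them. The difference was 0.05 over all libraries (adjusted p = 0.819), -0.02 without A or without C, and 0.19 without B, where alone it was called (adjusted p = 0.0193). SCAP, the escort protein, gave -0.18 over all libraries and -0.14 without B and passed in neither (adjusted p = 0.294 and 0.0799).

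In the sterol branch MSMO1 gave 715, 717 and 815 in the controls and 1003, 1191 and 1087 in CANA A, B and C. The groups did not overlap, with a log2 difference of 0.54 ± 0.10 over all libraries (adjusted p = 0.222) and 0.48 ± 0.07 without B (adjusted p = 0.000151, limma). STARD4, which moves cholesterol between membranes, gave 171, 194 and 192 in the controls and 258, 233 and 261 in CANA, again with no overlap, with 0.43 over all libraries (adjusted p = 0.247) and a rise of 0.49 without B (adjusted p = 0.00259). IDI1, the isopentenyl diphosphate isomerase, gave 754, 710 and 768 against 917, 1289 and 1012, with 0.51 over all libraries (adjusted p = 0.247) and a rise of 0.37 without B (adjusted p = 0.000906). All 3 CANA libraries of both genes were above their controls.

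HMGCS1, which makes HMG-CoA, gave 1264, 1311 and 1395 in the controls and 1560, 1481 and 1665 in CANA. The 3 CANA values were the 3 highest, with 0.24 ± 0.09 over all libraries (adjusted p = 0.248, limma) and a rise of 0.29 ± 0.06 without B (adjusted p = 0.00285). FDFT1 and SC5D, a sterol desaturase, made up the 6 sterol genes called without B, with 0.29 and 0.18, beside 0.42 and 0.13 over all libraries, where they were not called. SQLE, the squalene epoxidase, gave 2045, 2073 and 2071 against 2253, 2221 and 2254, so its groups did not overlap either, but the difference of 0.12 over all libraries (adjusted p = 0.358) and 0.13 without B (adjusted p = 0.0785) did not pass. No sterol gene was called lower, and DHCR7, the last reductase of the pathway, gave -0.10 over all libraries and -0.07 without B.

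Over all 6 libraries the CANA and control values did not overlap for 12 sterol genes with CANA higher and 1 (DHCR7) with CANA lower, against 17.7% of all genes in each direction. The median log2 difference of the 20 sterol genes was 0.24, and it was 0.12 without B, beside -0.01 for all genes in both cases. The size of the sterol median thus depended on replicate B, while its sign did not. Single genes did change sign. Of the 20 sterol genes, 18 had a positive difference over all libraries and 14 without B. All genes gave 6537 of 13450 and 6490 of 13445. MVK, PMVK, MVD, NSDHL and EBP were positive over all libraries and negative without B, and LSS was the reverse. By library, the sterol median was 0.11 in CANA A, 0.36 in B and 0.12 in C.

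In the fatty acid branch no gene was called higher, with or without replicate B. FASN, the fatty acid synthase, gave 7901, 8148 and 7297 in the controls and 7857, 3744 and 6904 in CANA A, B and C, with C just below the lowest control and B far below it. The difference was -0.40 ± 0.25 over all libraries (adjusted p = 0.373, limma) and -0.08 without B (95% interval -0.20 to 0.04, adjusted p = 0.367). SCD gave 2476, 2476 and 2346 against 2554, 1870 and 2462, with -0.10 over all libraries (interval -0.39 to 0.20) and 0.04 without B (interval -0.06 to 0.15), and here again B alone was low.

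FADS2 was the fatty acid gene with the clearest separation, at 5396, 5151 and 5217 in the controls and 4631, 4119 and 4539 in CANA. All 3 CANA libraries were below the controls, with -0.25 over all libraries (adjusted p = 0.247) and a fall of 0.20 without B (adjusted p = 0.00685). ACACB, the mitochondrial acetyl-CoA carboxylase, gave -0.45 over all libraries (adjusted p = 0.273) and was called lower without B at less than that size (-0.21, adjusted p = 0.036). The other 8 tested fatty acid genes were not called. The median of the 10 tested genes was -0.11 over all libraries and -0.04 without B.

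**Figure D1:**
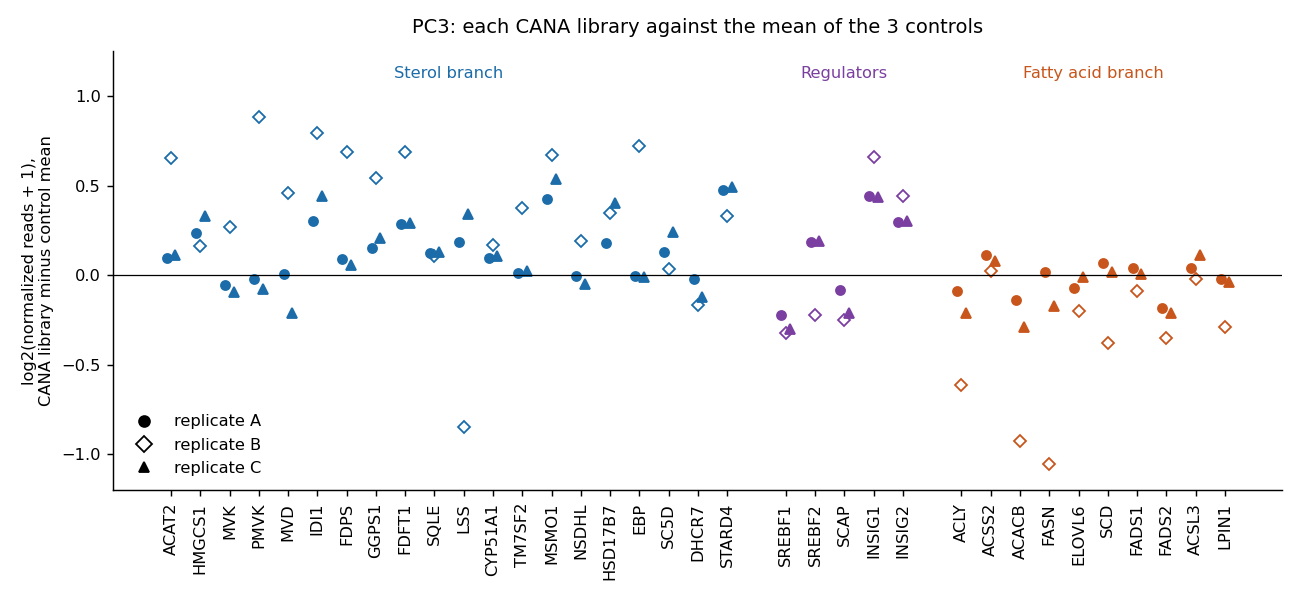
Difference of each PC3 CANA library from the mean of the 3 controls (y axis, log2 of normalized reads + 1) for the 35 tested members (x axis), with circles for replicate A, open diamonds for B and triangles for C. INSIG1, MSMO1, IDI1 and STARD4 lie above 0 and SREBF1 and FADS2 below 0 in all 3 libraries, while replicate B is far from the other 2 for genes such as FASN, LSS and PMVK.

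Replicate B moved with transcript length among the members. PMVK, the phosphomevalonate kinase with a transcript of 1002 bases, gave 2192 normalized reads in B against 1170 and 1125 in A and C, and FASN, with 8464 bases, gave 3744 against 7857 and 6904. Over the 35 members, which share their libraries, Pearson's r between log2 length and the difference from control was -0.78 in B, -0.11 in A and -0.12 in C, and over 13074 genes it was -0.62, -0.17 and -0.19. The sterol transcripts are the shorter ones, with a median of 2427 bases against 5448 in the fatty acid branch. After removal of the length curve the sterol median was 0.13 and the fatty acid median 0.00.

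**Figure D2:**
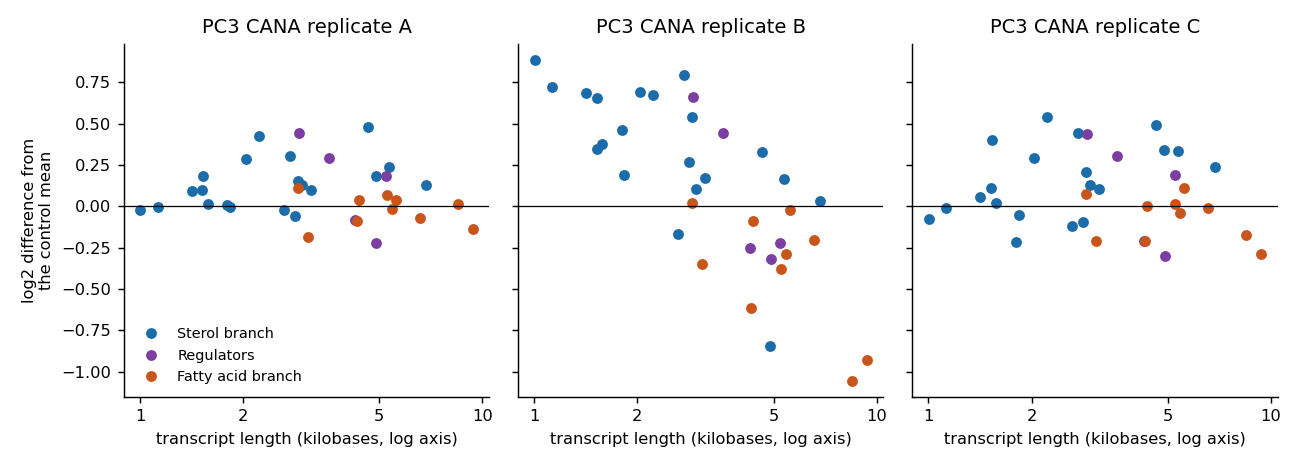
Transcript length (x axis, kilobases, log axis) against the log2 difference from the control mean (y axis) for the 35 tested members in PC3 CANA replicates A, B and C, coloured by branch. In replicate B the differences run from about PMVK at 0.89 down to FASN at -1.05 as transcripts lengthen. The relation is weaker in A and C (Pearson's r with log2 length of -0.11 and -0.12, against -0.78 in B).

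The second comparison asked what CANA did in unirradiated 22RV1 cells. None of the 36 members passed limma's test, against 0% of 14563 genes, 1 member (MSMO1) was higher at an unadjusted p below 0.05 and none was lower, against 1.65% and 1.24% of all genes, and no other tool was run on rlog values. For no member were the 3 CANA libraries all above or all below the 3 controls, against 6.36% of all genes.

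MSMO1 had rlog values of 10.86, 10.64 and 10.71 in control A, B and C and 10.70, 10.88 and 10.96 in CANA A, B and C. The groups overlapped, with a log2 difference of 0.11 (95% interval 0.01 to 0.21, adjusted p = 0.997, limma). INSIG1 had 10.30, 10.09 and 10.23 in the controls and 10.20, 10.25 and 10.37 with CANA, a difference of 0.07 (interval -0.02 to 0.16) with overlapping groups. SREBF1 had 11.56, 11.35 and 11.40 against 11.41, 11.53 and 11.49, which overlapped as well. Over all 36 members the 95% intervals lay within -0.14 and 0.21 on the rlog scale. The branch medians were 0.01 (sterol) and 0.00 (fatty acid).

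The controls themselves varied in these genes. Control A was the highest of the 3 for 16 of 20 sterol genes and for 26 of 36 members, against 29.1% of all genes. HMGCS1 had 11.71, 11.47 and 11.61 in control A, B and C, and INSIG1, IDI1, MSMO1 and STARD4 had the same order of A above C above B. The median SD of the members was 0.07 among controls, 0.04 with CANA, 0.04 after RT and 0.03 after CANA + RT, beside 0.05, 0.04, 0.04 and 0.04 over all genes. Without control A the sterol median with CANA was 0.04 and still no member was called.

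The third comparison asked what 5 Gy did to these genes in 22RV1 after 24 h. The sterol branch fell almost as a whole: 16 of 20 genes were lower and 2 higher. The fatty acid branch went both ways, with 4 genes higher and 4 lower of 11. Of the 36 members, 9 were called higher and 21 lower by limma, against 28.4% and 29.4% of 14563 genes (57.8% in either direction). The sterol median was -0.19 and the fatty acid median -0.03, beside -0.00 for all genes.

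ACAT2, which joins acetyl-CoA units at the head of the pathway, had rlog values of 10.96, 10.80 and 10.72 in control A, B and C and 10.32, 10.24 and 10.20 in RT A, B and C. The groups were far apart, and it fell by 0.57 ± 0.04 (SE, adjusted p = 1.13e-11, limma, n = 3 and 3). MVK had 9.28, 9.21 and 9.10 against 8.75, 8.66 and 8.65, also without overlap, and fell by 0.51 (adjusted p = 3.16e-10). EBP had 11.30, 11.26 and 11.19 against 10.92, 10.82 and 10.85 and fell by 0.39, with all RT libraries below the controls.

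IDI1 had 11.13, 10.87 and 10.94 in the controls and 10.68, 10.65 and 10.61 after RT, with no overlap, and fell by 0.33. HMGCS1 had 11.40, 11.40 and 11.37 after RT, all below the lowest control of 11.47, and fell by 0.20 (adjusted p = 0.000177, limma). SQLE fell by 0.15, from 9.69, 9.52 and 9.63 to 9.48, 9.48 and 9.43, a small step that still left no overlap. The other 10 sterol genes that were called lower were GGPS1, LSS, PMVK, DHCR7, FDPS, CYP51A1, MVD, NSDHL, MSMO1 and TM7SF2, with differences from -0.26 to -0.11.

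Of the sterol genes, 4 did not fall. STARD4 had 9.95, 9.72 and 9.85 in the controls and 9.98, 9.97 and 10.10 after RT, so that its groups were narrowly apart, and it rose by 0.18 (adjusted p = 0.00399, limma). HSD17B7 had 7.49, 7.41 and 7.48 against 7.69, 7.56 and 7.52 and rose by 0.13 (adjusted p = 0.0313), a call that was lost without control B (adjusted p = 0.119) or RT A (0.218). FDFT1 (0.04, interval -0.03 to 0.10) and SC5D (-0.02, interval -0.09 to 0.06) were not called. Without control A, in which sterol genes were high, FDFT1 was called higher (0.08, adjusted p = 0.0388) and MSMO1 was no longer called lower (-0.09, adjusted p = 0.0997). The non-overlap count over all members was 8 higher and 22 lower, ACACA among the lower, against 30% and 31% of all genes.

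Among the regulators, INSIG1 and INSIG2 went in opposite directions. INSIG1 had 9.97, 9.99 and 10.08 after RT, just under its lowest control of 10.09, and fell by 0.19 (adjusted p = 0.000695, limma). INSIG2 had 7.88, 7.71 and 7.90 in the controls and 8.04, 8.05 and 8.12 after RT, all above the controls, and rose by 0.24 (adjusted p = 0.000168). SREBF2 had 12.66, 12.59 and 12.55 against 12.71, 12.67 and 12.72 and rose by 0.10, while 16 of the 20 sterol genes fell. SCAP rose by 0.08 (adjusted p = 0.0436), but not without control C (0.04, adjusted p = 0.317) or any 1 of the RT libraries (0.164, 0.0659 and 0.0525 without A, B and C). SREBF1, with 11.42, 11.31 and 11.32 after RT, overlapped its controls and gave -0.08 (adjusted p = 0.0888), and it was called lower without control B (-0.13, adjusted p = 0.0103) or RT A (-0.12, adjusted p = 0.0306).

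In the fatty acid branch SCD, ACSS2, LPIN1 and FASN rose, and ACSL3, FADS2, FADS1 and ELOVL6 fell. SCD had 12.82, 12.59 and 12.67 in the controls and 13.00, 12.96 and 13.01 after RT, with no overlap, and rose by 0.29 ± 0.04 (adjusted p = 3.76e-07, limma). ACSS2, which makes acetyl-CoA from acetate, had 9.74, 9.69 and 9.66 against 9.95, 9.97 and 9.92 and rose by 0.25, again without overlap. LPIN1, a phosphatidate phosphatase, rose by 0.10. FASN rose by 0.08 (adjusted p = 0.019), from 13.97, 13.94 and 13.87 to 14.05, 13.97 and 14.01, its groups overlapped at control A and RT B, and the call was lost without control C (adjusted p = 0.118) or RT A (0.121).

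ACSL3, which activates fatty acids, had 11.18, 10.93 and 11.04 in the controls and 10.55, 10.57 and 10.56 after RT and fell by 0.49 (adjusted p = 1e-09, limma). All 3 RT values lay below the controls and close to each other. FADS2 had 9.71, 9.65 and 9.62 against 9.22, 9.15 and 9.23 and fell by 0.46, its neighbour and partner FADS1 fell by 0.26, and the elongase ELOVL6 fell by 0.13. ACLY (-0.03) and ACACB (0.04) were not called, nor was ACACA.

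**Figure D3:**
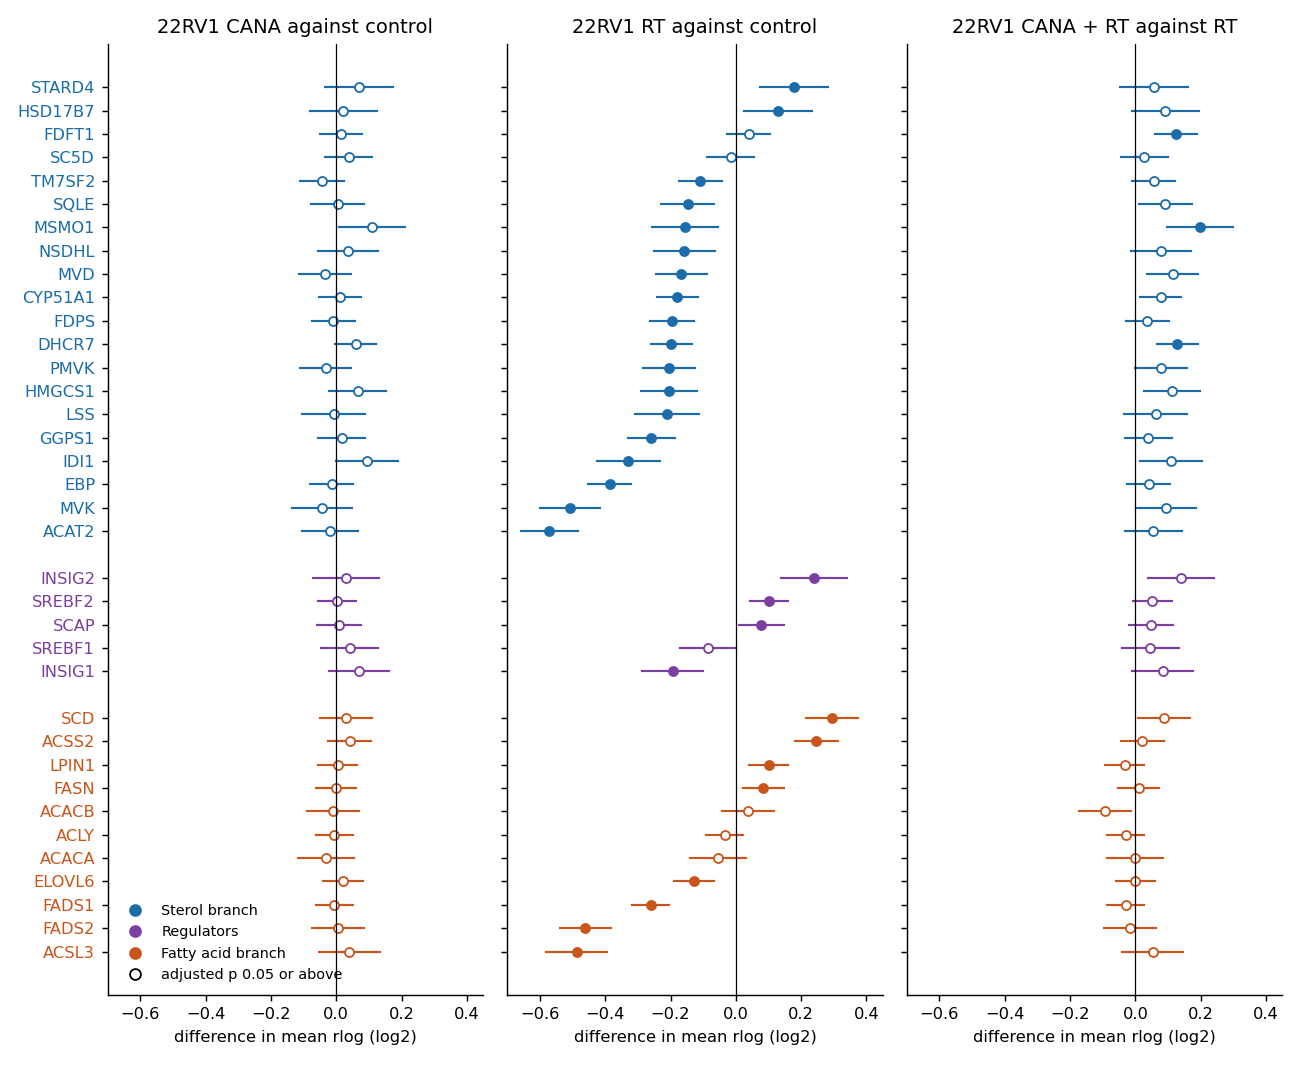
Difference in mean rlog (x axis, log2) with its 95% interval for the 36 members (y axis) in 22RV1, for CANA against control, RT against control and CANA + RT against RT. Filled points have a limma adjusted p below 0.05: none in the left panel, 30 in the middle panel and MSMO1, DHCR7 and FDFT1 in the right panel, where all 20 sterol points lie to the right of 0.

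The fourth comparison asked what CANA added in irradiated 22RV1 cells. All 20 sterol genes had a positive log2 difference, against 48.3% of all genes, but the differences were small, from 0.03 to 0.20. These genes share their libraries and are not 20 separate observations. Among the RT libraries, RT A was the highest for 14 of the 20, against 33.2% of all genes. limma called 3 members higher (MSMO1, DHCR7 and FDFT1) and none lower, against 1.4% of 14563 genes higher and 1.17% lower. No regulator or fatty acid gene was called. The sterol median was 0.08 and the fatty acid median -0.00. The RT libraries were also the treated group of the third comparison, so that the 2 comparisons are not independent of each other.

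MSMO1 had 10.55, 10.57 and 10.62 in RT A, B and C and 10.79, 10.74 and 10.80 in CANA + RT A, B and C. The groups did not overlap, and MSMO1 rose by 0.20 ± 0.05 (SE, adjusted p = 0.0292, limma, n = 3 and 3). DHCR7 had 11.22, 11.15 and 11.17 against 11.32, 11.31 and 11.30, without overlap, and rose by 0.13 ± 0.03 (adjusted p = 0.0232). FDFT1 had 12.97, 12.99 and 13.02 against 13.09, 13.11 and 13.16, without overlap, and rose by 0.12 ± 0.03 (adjusted p = 0.0321).

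These 3 calls were not stable, with all libraries kept or with one left out. With all kept, MSMO1 was lost with a robust prior (adjusted p = 0.124, limma) and FDFT1 with quantile scaling (0.0733). Without the filter on low values all 3 were lost (0.0812 to 0.153). Leaving out RT A kept DHCR7 alone and leaving out RT C kept MSMO1 and FDFT1, and leaving out RT B or any of the 3 CANA + RT libraries kept none. Over all alternatives the log2 difference of MSMO1 lay between 0.18 and 0.22, that of DHCR7 between 0.11 and 0.15 and that of FDFT1 between 0.10 and 0.14. With the spread estimated from the 6 irradiated libraries only, 8 members were called higher, against 4.6% of all genes in that fit, namely these 3 and HMGCS1, MVD, IDI1, CYP51A1 and SCD.

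HMGCS1 had 11.40, 11.40 and 11.37 after RT and 11.51, 11.50 and 11.50 after CANA + RT, with no overlap, and the difference of 0.11 did not pass over all 12 libraries (adjusted p = 0.155, limma). SQLE had 9.48, 9.48 and 9.43 against 9.55, 9.58 and 9.54, also apart, with 0.09 (adjusted p = 0.219). INSIG1 had 9.97, 9.99 and 10.08 against 10.14, 10.08 and 10.07, which overlapped, with 0.08 (adjusted p = 0.347). The CANA + RT libraries did not overlap the RT libraries for 9 sterol genes, all with CANA + RT higher, against 12.2% of all genes higher and 12.6% lower.

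SREBF2 had 12.71, 12.67 and 12.72 after RT and 12.74, 12.75 and 12.76 after CANA + RT, narrowly apart and not called (0.05, adjusted p = 0.365, limma). SREBF1 had 11.43, 11.42 and 11.34 after CANA + RT and overlapped RT (0.05). Among the fatty acid genes SCD had 13.00, 12.96 and 13.01 against 13.10, 13.10 and 13.03, all CANA + RT libraries above the RT ones (0.09, adjusted p = 0.238), and FASN had 14.05, 13.97 and 14.01 against 14.03, 14.03 and 14.00, a difference of 0.01 (interval -0.05 to 0.07). ACACB gave -0.09 (adjusted p = 0.204).

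**Figure D4:**
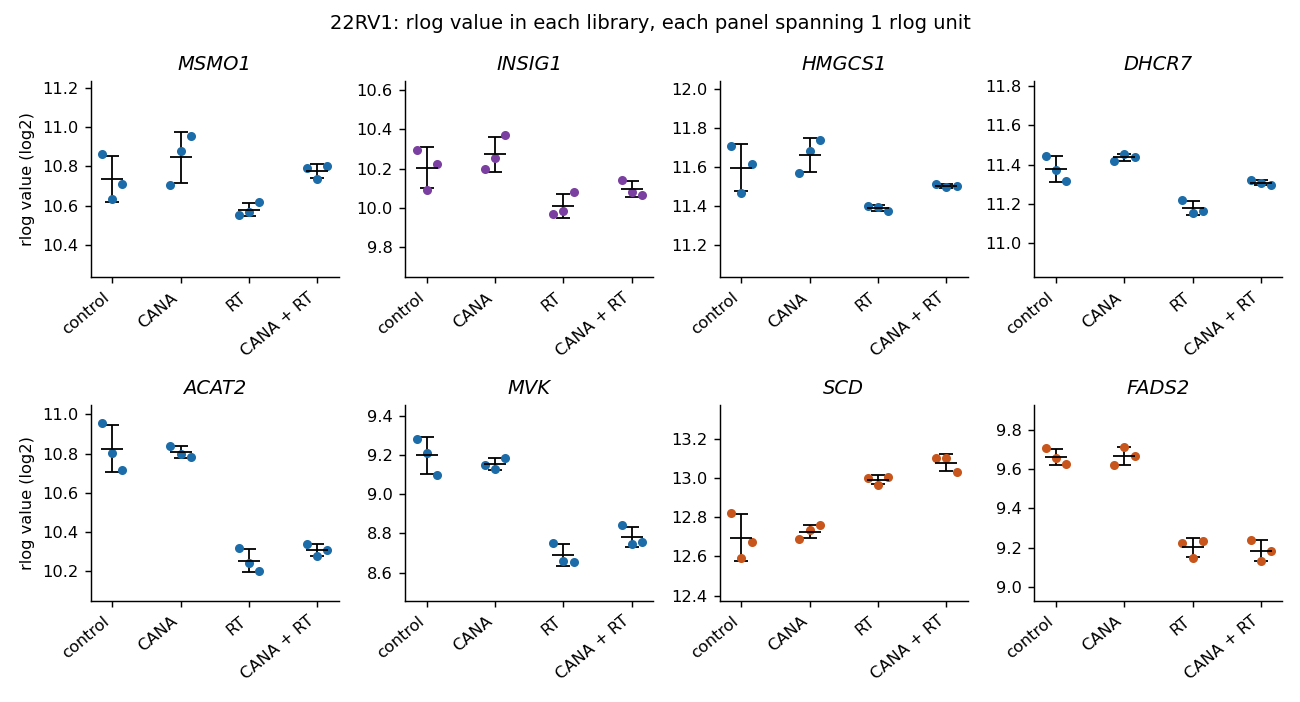
rlog value (y axis, log2, each panel spanning 1 unit) of 8 members in each of the 12 22RV1 libraries (points; A, B and C from left to right), with the group mean and SD (black bars). MSMO1, HMGCS1 and DHCR7 lie lower in RT than in the other 3 groups' means, ACAT2, MVK and FADS2 fall with RT with or without CANA, and SCD is above every control in all irradiated libraries.

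Whether CANA acted differently in irradiated and unirradiated 22RV1 cells was tested as an interaction. No member passed limma's test, against 0.103% of all genes, 5 members were higher at an unadjusted p below 0.05 and none lower, against 4.85% and 5.6% of all genes, and no other tool was run. The CANA difference of MSMO1 was 0.11 without and 0.20 with radiation, an interaction of 0.09 (95% interval -0.06 to 0.23). That of INSIG1 was 0.07 and 0.08, an interaction of 0.01 (interval -0.12 to 0.15). The largest interaction was that of MVD, the mevalonate diphosphate decarboxylase, with -0.04 without and 0.11 with radiation (0.15, interval 0.04 to 0.26, adjusted p = 0.338). Over the sterol genes these intervals ran from -0.16 to 0.27, which takes in the size of the CANA differences seen in irradiated cells.

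The surrounding pathway was followed in 50 further genes. In 22RV1 after RT, 16 of 49 tested were higher and 13 lower, near the 28.4% and 29.4% of all genes, and the counts of the single lists are given as descriptions. Of 6 genes of the oxysterol receptor LXR and its targets, 2 were higher and 2 lower. The cholesterol exporters ABCA1 and ABCG1 among them went in opposite directions, with 0.59 and -1.13 on the log2 scale (adjusted p = 4.93e-10 and 3.49e-15, limma). Of the genes that process or degrade SREBPs and their partners, 3 of 10 were higher, RNF145 by 0.29 and MARCHF6 by 0.22, and 4 were lower, ERLIN1 by 0.34 among them. Of the genes of sterol traffic and storage, 4 of 9 tested were higher, GRAMD1A by 0.74 and SOAT1, which esterifies cholesterol, by 0.23, and NPC2 alone was lower.

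Of the genes of fatty acid supply and glycerolipids, 6 of 15 were higher and 5 lower after RT, against 28.4% and 29.4% of all genes. The acyl-CoA synthetases ACSL4 (0.53) and ACSL1 (-0.66) were among them. Of 9 users of isoprenoids, PDSS2 was higher and PDSS1 lower, which are the 2 subunits of one enzyme of coenzyme Q synthesis. With CANA + RT against RT, only RABGGTB, a subunit of the geranylgeranyl transferase, was called of the 50 genes (0.13, adjusted p = 0.0399). With CANA in PC3 none was called over all 6 libraries. Without replicate B, 5 of 49 were higher and 4 lower, near the 10.4% and 9.54% of all genes. The higher ones were NPC2 (0.55), RABGGTB (0.33), LPIN2 (0.28), LIPA (0.27) and ACSL4 (0.26). The lower ones were ACSL1 (-0.26), RNF145 (-0.22), GRAMD1B (-0.20) and OSBP (-0.16). NPC2 and LIPA free cholesterol in lysosomes, and OSBP and GRAMD1B carry sterol between membranes.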

How the data were processed

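RNA-seq of 6 PC3 and 12 22RV1 libraries (single-end, reverse-stranded) was trimmed with Cutadapt and Trimmomatic, aligned to hg38 with HISAT2, counted over exons with featureCounts and normalized with DESeq2 by the authors, without versions given in the sources used here. For PC3 the deposited values were a size-factor normalized signal, in which 91169 of 91170 values were whole reads (within 0.01) once the library's factor was undone. For 22RV1 the deposited values were rlog values on a log2 scale. Columns of the authors' own comparisons (fold changes, statistics, p-values, ranks) were not used, nor were 51 per-sample columns in 7 sheets of 1 gene each that name no sample. Rows without a symbol held 0.0246% of PC3 reads and 0.0606% of the 22RV1 mean.

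PC3 was tested with limma 3.58.1 (R 4.3.3, trend) on log2(value + 1), mean of at least 10, on which scale the change of low genes is understated. 22RV1 was tested with limma over all 12 libraries with 4 group means, mean rlog of at least 3. Libraries shared by the 22RV1 tables held equal values. p-values were adjusted over all genes tested (Benjamini-Hochberg). edgeR 4.0.16 and DESeq2 1.42.0 were run on the recovered PC3 reads as alternatives. The other alternatives were pseudocounts of 0.5 and 8, other minimums, median and quantile scaling, a transcript length curve, a robust prior, a replicate block and leaving out each library. The main PC3 fit, edgeR and DESeq2 were tried on simulated data. So were the 22RV1 tests of CANA (with no change added), of CANA + RT against RT and of the interaction. RT against control and the other alternatives were not. The simulated PC3 libraries were drawn from the controls' means and spread, without a transcript length effect or a library like CANA B. The authors state in general that independent experiments were performed, and call the RNA-seq replicates A, B and C different. They do not say whether these were separate cultures, so p-values measure the spread between these samples. No 2 libraries were duplicates.

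Members and lists were chosen with earlier results of these data known. Values in every library are given for INSIG1, SREBF1, SREBF2, SQLE, HMGCS1, FASN, SCD and ACACA and for up to 6 called members in each direction by size of change, and of other lists up to 2 called genes in each direction. Errors after ± are standard errors from the fit. Gene positions and lengths are from GENCODE 44, and promoters from RefSeq (GRCh38.p14). Some genes of these lists are not reported here.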

Additional observations from a re-analysis of the deposited data

Results flagged for a closer look

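For 4 members every CANA library lay on one side of its reference group's mean in one setting and every CANA library on the other side in another. The share of all genes with such a pattern was not counted, so this number is a description. Some libraries lay near the mean, at -0.02 for DHCR7 in PC3 and -0.01 for MVK in unirradiated 22RV1. The difference between the settings was not tested for the PC3 comparisons, whose values are on another scale. DHCR7 averaged -0.10 (log2) in PC3, 0.06 in unirradiated 22RV1 and 0.13 in irradiated 22RV1, so that PC3 differed by -0.16 and -0.23. SCAP averaged -0.18 in PC3 and 0.05 in irradiated 22RV1, a difference of -0.23. Within 22RV1, MVK averaged -0.04 without and 0.09 with radiation (-0.14) and MVD -0.04 and 0.11 (-0.15). The interaction of these 2 did not pass limma's test (adjusted p = 0.462 and 0.338). No group was large enough for a test of single outlying libraries.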

How the results depend on the processing

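In PC3, 0 members were called over all libraries, 5 with DESeq2, 1 with the transcript length curve removed, and 0 to 12 when a library was left out, with 12 only without CANA B. Over all genes the counts were 0, 350, 36 and 0 to 2686. For CANA + RT against RT, 3 members were called, 0 without the filter on low values, 8 with only the 6 libraries compared, and 0 to 2 when a library was left out, beside 374, 105, 1193 and 95 to 241 of all genes. The interaction gave 0 members, and 0 to 1 when a library was left out (MVD without control C), beside 15 of all genes, 0 without the filter and 0 to 116. RT against control gave 28 to 30 members and unirradiated CANA 0 under every alternative. No member was called in the direction opposite to its value with all libraries, and SREBF2 in PC3, called only without CANA B, was -0.02 without CANA A or C. With quantile scaling FDFT1 was also called higher after RT, and HSD17B7 and FASN were not called. The letters A to C were not used as a pairing in the main fits. After group means were removed, samples of the same letter correlated at 0.05 to 0.12 in PC3 and -0.14 to 0.43 in 22RV1. Of these values, 1 of 3 and 4 of 18 passed 0.1. Samples of different letters correlated at -0.16 to 0.07 and -0.37 to 0.43, where 0 of 6 and 2 of 36 passed 0.1. These values do not settle whether the letters are a pairing. A replicate block gave 0 members in PC3, 0 with the length curve also removed, 0 for unirradiated CANA, 30 for RT, 3 for CANA + RT and 0 for the interaction. rlog draws differences towards 0 and holds no depth per library, which limits how small a change could be seen in 22RV1, and 3 libraries a group limit every comparison.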
